A study of Mus musculus with 8 samples.

Results

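RNA splicing factor genes are examined here as a group of 53 protein-coding genes, out of 21779 mouse coding genes for which positions were used. Members were set by a rule on symbols, and the group was chosen with earlier results of these data known. The group held 11 SR protein genes (symbols Srsf and a digit), 21 hnRNP genes (Hnrnp), 12 snRNP protein genes (Snrp) and 9 genes of the SF3a and SF3b complexes. The data are peak lists from chromatin immunoprecipitation and sequencing (ChIP-seq) of Smad4 in CD4+ T cells, taken from the spleen and lymph nodes of C57BL/6 mice. There were 2 wild-type (WT) libraries and 2 Smad4 knockout (KO) libraries, the latter of the genotype CD4cre;Smad4fl/fl, in which a Cre recombinase driven by Cd4 regulatory sequences removes a floxed Smad4 allele in T cells. All cells were activated and had been kept for 12 h with IL6 and a TGF-β receptor inhibitor, in WT and KO alike. Both WT samples came from females, KO replicate 1 from pooled males and females and KO replicate 2 from males, so sex and genotype cannot be told apart. The labels give no age and do not say whether the replicates came from separate animals, so any p-value compares these libraries only and not animals.

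Smad4 is the common partner SMAD of the TGF-β and BMP pathways, and it binds DNA together with receptor-activated SMADs and other transcription factors. Pre-mRNA splicing removes introns in the spliceosome, which is assembled from small nuclear RNPs (snRNPs). Sm proteins, encoded by most of the Snrp genes, form a ring on the small nuclear RNAs, and the SF3a and SF3b complexes belong to the U2 snRNP that recognises the branch point. SR proteins bind exons and mostly favour their inclusion, while hnRNP proteins coat nascent RNA and often repress exons. In T cells, hnRNP L and hnRNP LL, encoded by Hnrnpl and Hnrnpll, are known for controlling the alternative exons of the CD45 gene Ptprc during activation. Most splicing factor genes are expressed in nearly all cell types from promoters rich in CpG dinucleotides.

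The WT lists held 27120 and 19792 peaks (replicates 1 and 2), and the KO lists 564 and 424. They give positions without a height or score, and the number of reads behind them is unknown, and differences in depth and in binding cannot be told apart from peak numbers alone. A WT-only region is one built from overlapping peaks of both WT lists that meets no KO peak. There were 15882 of these. All 8 of the CD4+ T cell marker genes (Cd3e, Cd3d, Cd3g, Cd4, Cd5, Cd28, Lck and Cd2) carried a WT-only region in the territory. So did 1 of 4 B cell markers, 1 of 2 NK cell markers, and none of the 4 myeloid or 3 hepatocyte markers. The share over all coding genes was 44.3%. The territory of a gene is its body with 10 kb on both sides, and a gene end is a window of 1 kb on both sides of either end of the gene.

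Promoter sequences are shown first for the members on which the description turns. For each family the member was taken whose promoter met the WT-only region with the largest sum of peak widths over both WT lists. Srsf1 was added because it was the only member whose promoter held the palindromic SMAD-binding element GTCTAGAC. Each sequence runs from 250 bases before to 50 bases after the annotated start, on the strand of the gene, from RefSeq on GRCm38.p6. Capitals mark matches on either strand to 3 motifs known to be bound by SMAD proteins, the short element CAGAC, the GC-rich element GGCGC and GTCTAGAC. A GGCGC match and one on the other strand overlap wherever GGCGCC stands.
Srsf2: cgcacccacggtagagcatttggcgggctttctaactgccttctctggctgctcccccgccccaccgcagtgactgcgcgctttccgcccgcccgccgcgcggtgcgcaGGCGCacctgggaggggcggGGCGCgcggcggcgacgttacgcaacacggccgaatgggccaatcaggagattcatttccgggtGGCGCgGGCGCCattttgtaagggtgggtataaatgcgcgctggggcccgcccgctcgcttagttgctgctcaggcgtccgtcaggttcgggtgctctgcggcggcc
Srsf1: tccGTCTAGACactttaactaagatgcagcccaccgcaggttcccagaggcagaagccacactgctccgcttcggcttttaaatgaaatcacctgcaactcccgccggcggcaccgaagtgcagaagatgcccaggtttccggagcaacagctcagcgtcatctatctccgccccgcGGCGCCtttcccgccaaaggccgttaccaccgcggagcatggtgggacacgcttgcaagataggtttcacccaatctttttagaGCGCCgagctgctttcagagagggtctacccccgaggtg
Hnrnpl: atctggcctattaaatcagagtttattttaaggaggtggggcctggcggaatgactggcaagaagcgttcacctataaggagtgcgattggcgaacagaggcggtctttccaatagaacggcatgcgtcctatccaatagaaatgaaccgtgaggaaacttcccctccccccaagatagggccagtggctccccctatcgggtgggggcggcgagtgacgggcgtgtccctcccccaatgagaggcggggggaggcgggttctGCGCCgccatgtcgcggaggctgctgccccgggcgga
Snrpe: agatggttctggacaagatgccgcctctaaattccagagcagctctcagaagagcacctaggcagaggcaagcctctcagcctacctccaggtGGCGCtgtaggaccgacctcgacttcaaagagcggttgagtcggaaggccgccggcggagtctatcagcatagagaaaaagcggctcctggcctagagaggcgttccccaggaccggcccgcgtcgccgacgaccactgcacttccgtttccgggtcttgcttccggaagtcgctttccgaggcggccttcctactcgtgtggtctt
Sf3a2: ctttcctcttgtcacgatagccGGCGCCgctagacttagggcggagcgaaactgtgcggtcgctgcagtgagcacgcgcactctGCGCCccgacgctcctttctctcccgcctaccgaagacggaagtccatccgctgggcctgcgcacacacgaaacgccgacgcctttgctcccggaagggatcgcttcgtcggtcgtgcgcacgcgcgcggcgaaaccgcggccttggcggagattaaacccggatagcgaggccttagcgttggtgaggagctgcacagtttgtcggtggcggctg
The Srsf2 window was chr11:116853045-116853344 (minus strand) and the Srsf1 window chr11:88047123-88047422 (plus strand). The Hnrnpl window was chr7:28810640-28810939 (plus strand), the Snrpe window chr1:133610231-133610530 (minus strand) and the Sf3a2 window chr10:80798485-80798784 (plus strand). No CAGAC stood in any of these 5 windows. GGCGC was matched 5 times at Srsf2, 3 times each at Srsf1 and Sf3a2 and once each at Hnrnpl and Snrpe.

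Smad4 peaks were found at most splicing factor genes in WT cells and at none of them in KO cells. A peak lay in the territory of 51 of the 53 genes in each WT library and of 0 in each KO library. At gene ends the counts were 46 and 47 genes in the WT libraries and 0 in each KO library. Over all coding genes the WT lists reached 53.5% and 48.5% of territories and 36.7% and 32.7% of gene ends, and the KO lists 1.87% and 1.16% of territories and 0.409% and 0.174% of gene ends. The members' counts were thus above the background in both WT lists, at 96.2% of territories in each and at 86.8% and 88.7% of gene ends. The WT peaks in member territories numbered 99 and 87 and summed to 80.7 and 71.3 kb in WT replicates 1 and 2.

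The absence of KO peaks did not set these genes apart. A region called in a KO library lay in the territory of 2.42% of all coding genes (0.505% at a gene end), a rate at which 1.28 of 53 genes would hold one. For each count and for the summed width WT and KO values did not overlap, with means of 51 ± 0, 46.5 ± 0.707 genes and 76013 ± 6668 bp (SD, n = 2) in WT and 0 in KO. The exact 2-sided permutation test gave p = 0.333 for all 3 quantities, the smallest that 2 libraries against 2 allow. The widest 424 peaks of each list were also taken, 424 being the number in the smallest list. Of these, WT replicate 1 had a peak at 4 members and WT replicate 2 at 9. The KO lists had none, which was fixed by their full lists having none. The narrowest peaks kept were 1950 and 1726 bp in WT replicates 1 and 2 and 254 and 234 bp in KO. These small sets reached 2.10% and 2.26% of all coding genes in WT and 1.38% and 1.16% in KO. Of the 10 members reached in either WT list 9 were hnRNP genes and the other was Srsf3. Hnrnpl, Hnrnpa2b1 and Hnrnpul1 were reached in both WT lists. As peaks were kept by width, these names only restate which members had the widest peaks.

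WT-only regions lay in the territory of 50 members (94.3%; exact Clopper-Pearson 95% interval 84.3% to 98.8%), against 44.3% of all coding genes. They lay at a gene end in 45 members (84.9%; interval 72.4% to 93.3%), against 29.4% of all coding genes. These intervals cover counting error only. The members were not long genes, with a median length of 10435 bp against 17217 bp over all coding genes. For each member, the 200 other coding genes nearest in length were taken, and over these sets 44.9% of territories and 29.7% of gene ends held a WT-only region. At that rate 15.7 members would have one at a gene end, and 45 had. The gap was present in each of 3 length classes. Among the 18 shortest members (734 to 7290 bp) 16 had a WT-only region at a gene end, against 19.1% of the other coding genes in that range of length. Of the 17 of middle length 14 did, against 31.0%, and of the 18 longest 15 did, against 35.2%. The choice of genes was made with earlier results of these data known, so the counts are given as a description without a test.

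By family, a gene end was reached in 10 of 11 SR protein genes, 18 of 21 hnRNP genes, 9 of 12 snRNP genes and 8 of 9 SF3 genes. The corresponding shares were 90.9%, 85.7%, 75.0% and 88.9%. The intervals by family are wide, 42.8% to 94.5% for the snRNP genes, and cannot show whether the families are alike. Other groups of genes active in most cells also lay above the average of coding genes. Of 83 cytosolic ribosomal protein genes 74.7% had a WT-only region at a gene end, of 56 genes with an Eif symbol (mostly translation initiation factors) 67.9%, and of 51 genes with a proteasome symbol (Psma to Psmg) 54.9%. Whether the splicing factor genes differ from these groups was not tested. How active each gene was in these cells was not measured here, and its part in the counts was not tested.

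**Figure D1:**
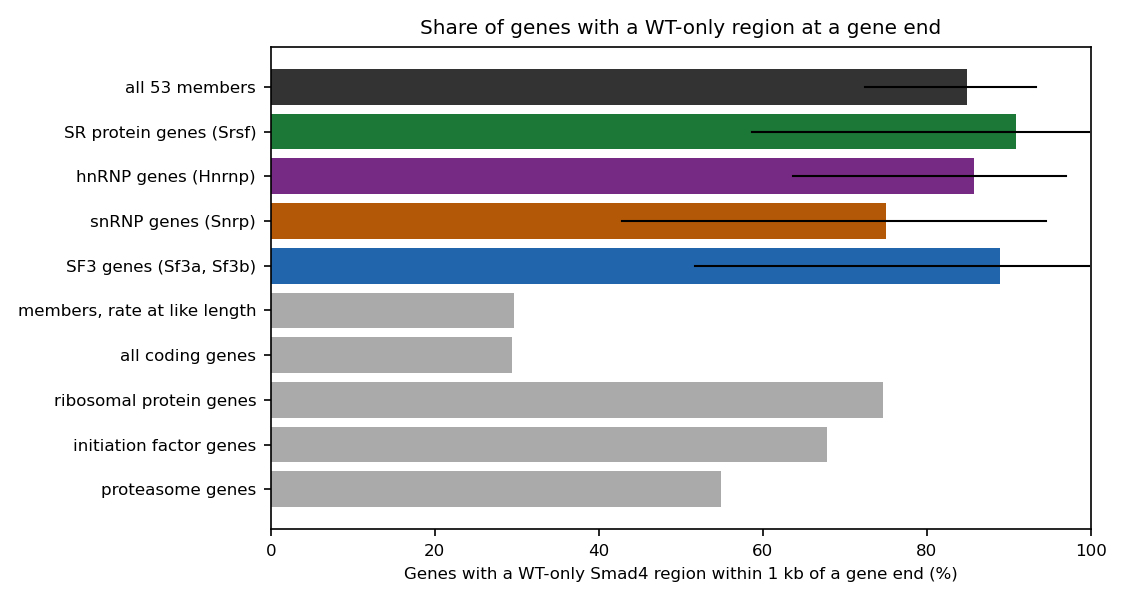
Bars give the share of genes (%) with a WT-only Smad4 region within 1 kb of a gene end, for the splicing factor genes, their 4 families and other gene groups, and lines on the top 5 bars are exact 95% intervals. The splicing factor genes stand at 84.9%, other coding genes of like length at 29.7% and the ribosomal protein genes at 74.7%.

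Most members held 1 or 2 regions, and 41 of 73 regions contained an annotated start of the member. For 6 members no start was available, so their regions, part of the 73, could not be scored. WT-only regions in member territories numbered 73, and none was shared between members. There was 1 region in 32 members, 2 in 15, 3 in Srsf10 and 4 each in Snrpg and Hnrnpf. Of the 73, 64.4% (47) lay at an end of the member, 13.7% (10) elsewhere inside it, 13.7% (10) at an end of another coding gene and 8.22% (6) elsewhere. Over all coding genes 37.8% of such regions lay at an end of the gene and 33.1% elsewhere inside it.

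The annotated start, read from the RefSeq promoter table, was available for 47 members. A WT-only region came within 1 kb of a start in 41 of these (87.2%), against 30.3% of coding genes with a start, and it contained a start in 39 (83%), against 26.9%. By the outer bounds of the gene, 39 of the 47 had a region at the end where transcription starts, against 28.3% of coding genes. Only Sf3b2 of the 47 had one at the far end, where the background was 3.18%. That region, chr19:5272647-5273718, also held an annotated start of the neighbour Pacs1. In Srsf12 and Hnrnpab the region came within 1 kb of the start without containing it. The regions that contained a start reached a median of 604 bp upstream and 565 bp downstream of it, and 20 of 41 reached further downstream than upstream. For all coding starts inside a WT-only region the medians were 408 and 389 bp, and 48.8% reached further downstream. These were taken over 5377 starts, while the values of members count each region once, from its nearest start.

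**Figure D2:**
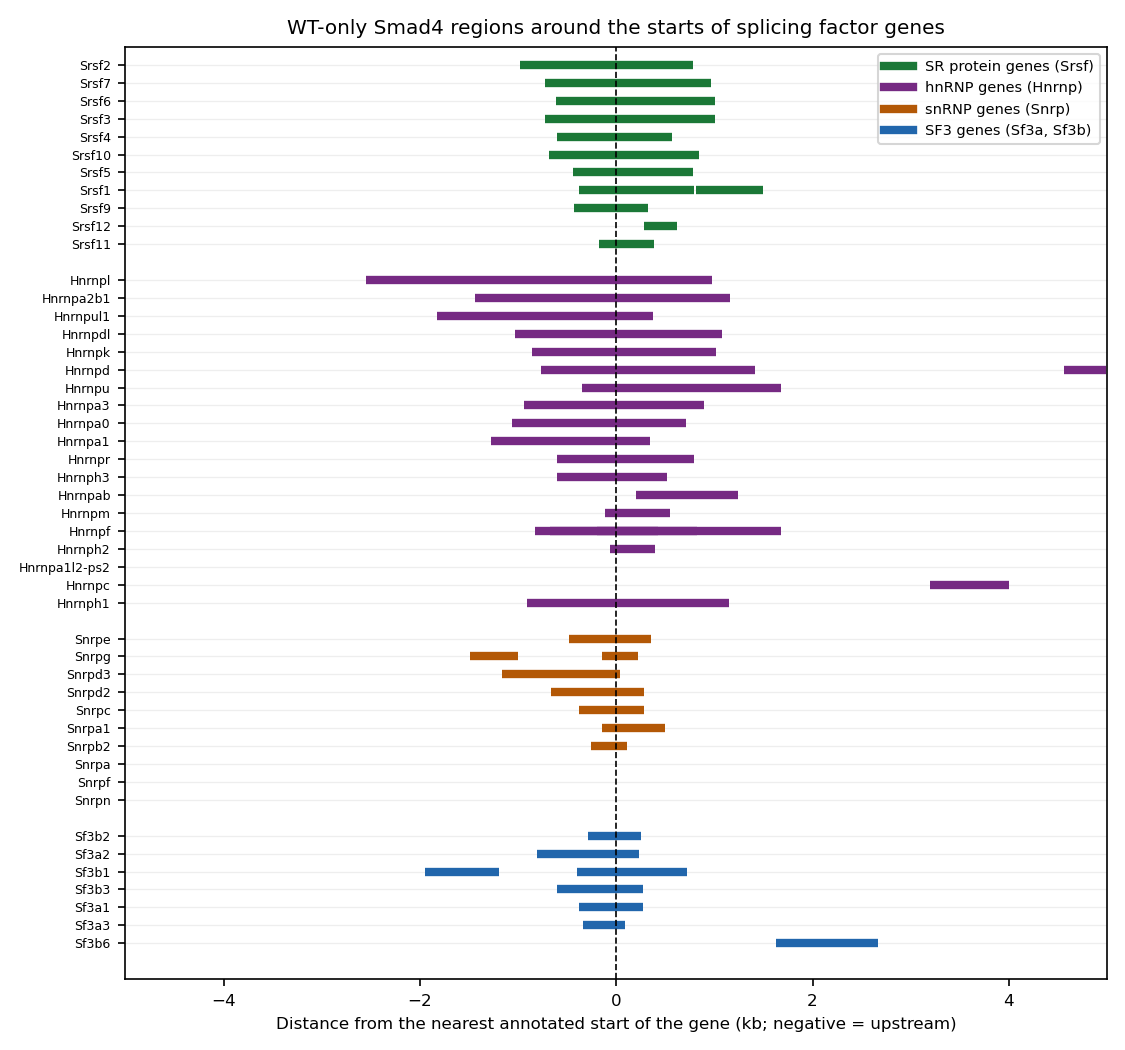
Each bar is a WT-only Smad4 region of a splicing factor gene with an annotated start, drawn by its distance in kb from the nearest start of that gene (dashed line, negative values upstream), within 5 kb. Regions of 39 genes contain a start and cross the dashed line (the 3 of Hnrnpf lie at different starts and are drawn over each other), while Snrpa, Snrpf, Snrpn and Hnrnpa1l2-ps2 have no bar.

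SR protein genes had wide regions at their starts. Srsf2, which encodes a nuclear speckle protein also called SC35, had peaks of 1606 bp in WT replicate 1 and 1704 bp in WT replicate 2 over its start (chr11:116852312-116854079). Srsf7 had peaks of 1690 and 1094 bp (chr17:80206340-80208029) and Srsf6 of 1620 and 1120 bp (chr2:162930898-162932517). Srsf3, which encodes the smallest SR protein, had 994 and 1728 bp (chr17:29031935-29033662). Neither WT library was the wider one throughout, and the KO libraries had no peak at any of these 4 genes. The region of Srsf1, the gene of the founding SR protein, had peaks of 1172 and 954 bp over its start (chr11:88046994-88048165), and a second region of 494 and 432 bp followed inside the gene after a short gap. The GTCTAGAC of Srsf1 shown above stood in the promoter window that this first region covered. At the other end of the family, Srsf12 had a single pair of narrow peaks of 240 and 242 bp. Their sum, 482 bp, was also the smallest over all coding genes with an end region, so it may be a floor of the peak calling. Srsf11 had a WT-only region (450 and 544 bp) over its second annotated start inside the gene, while at its outer start only WT replicate 1 had a peak, of 240 bp.

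The widest regions of the group lay at hnRNP genes. Hnrnpl had peaks of 3522 bp in WT replicate 1 and 2958 bp in WT replicate 2 (chr7:28808344-28811865), which reached 2546 bp upstream and 975 bp downstream of its start. The gene body in the table begins 2344 bp before that start, so the region lay almost wholly inside the annotated gene. Hnrnpa2b1 had peaks of 2528 and 2562 bp (chr6:51468734-51471337), Hnrnpul1 of 1986 and 2140 bp (chr7:25754386-25756583) and Hnrnpdl of 1906 and 2102 bp (chr5:100038141-100040254). In all 4 both WT libraries had a peak above 1.9 kb, and neither KO library had one. The region of Hnrnpul1 also met an end window of its neighbour Axl. Hnrnpll, the partner of Hnrnpl in CD45 splicing, had peaks of 1946 and 1192 bp over a gene end (chr17:80060965-80062910), and a further region 6.55 kb outside the gene. The end region also held an annotated start of the neighbour 4933407O12Rik, and no start was available for Hnrnpll. Hnrnpk, which encodes a protein that binds C-rich RNA, had 1808 and 1810 bp. Hnrnpf, with 4 regions, had peaks of 530 and 390 bp at its outer start, 2046 and 1642 bp at one inner start and 1580 and 1218 bp at another. The outer bounds of a gene can thus miss its widest region. That of Hnrnpf also met an end window of another coding gene, 4933440N22Rik. Hnrnph1, which encodes a relative of hnRNP F, was counted among the genes without an end region although peaks of 1770 and 2064 bp (chr11:50376886-50378949) covered an annotated start inside its bounds.

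**Figure D3:**
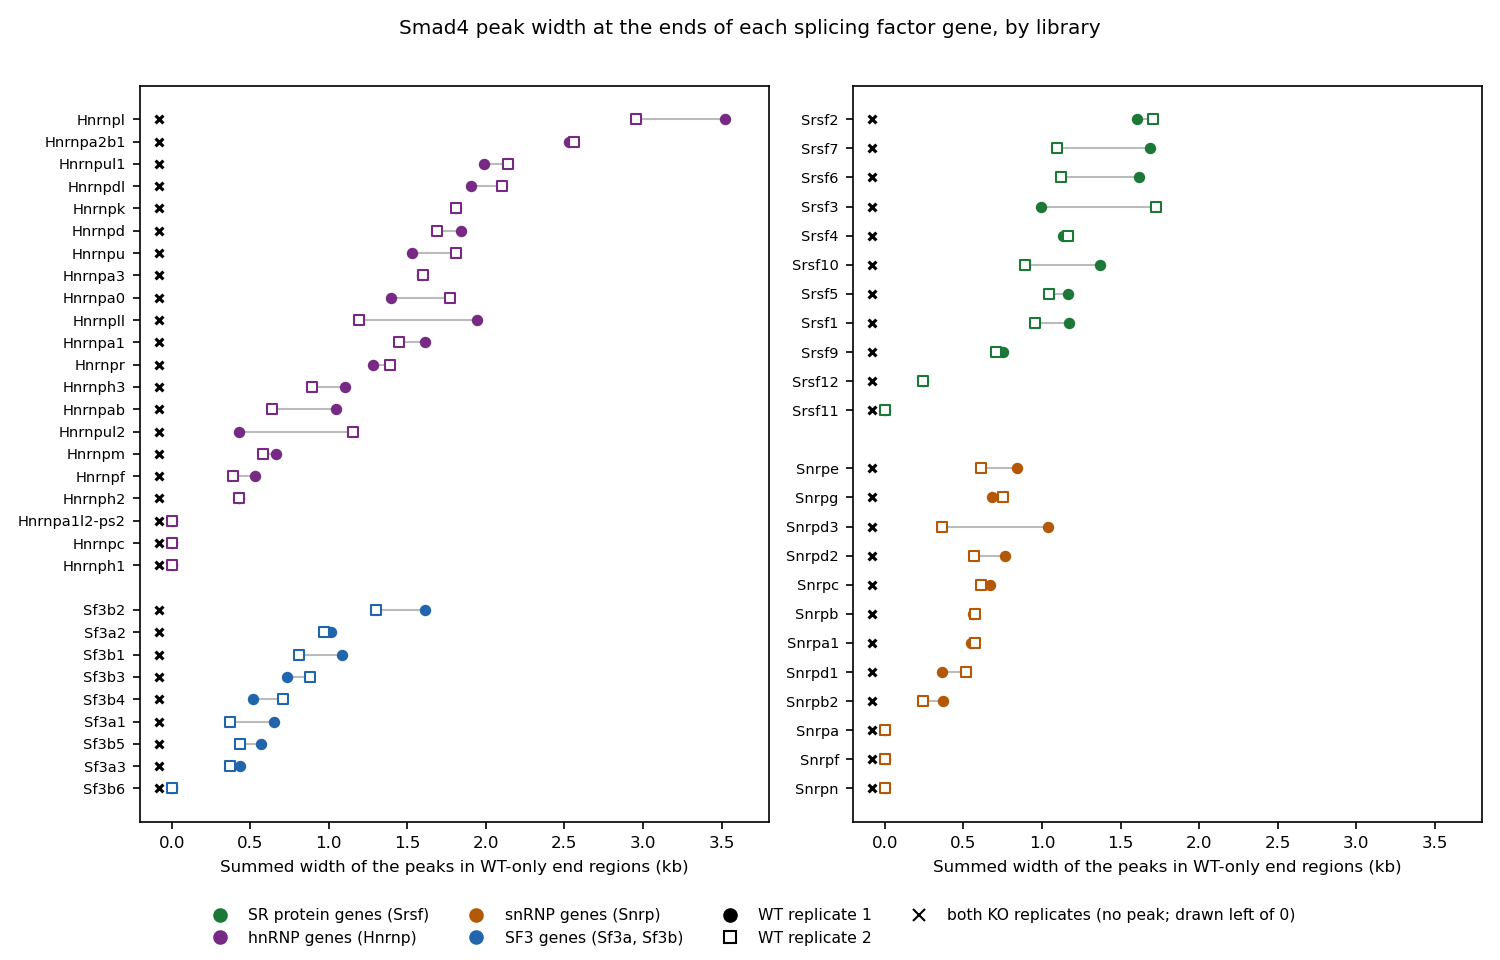
For each splicing factor gene, the summed width in kb of the peaks in its WT-only end regions is shown for WT replicate 1 (filled circles) and WT replicate 2 (open squares); crosses left of 0 mark that both KO lists had no peak there. Hnrnpl stands highest at 3522 and 2958 bp, the snRNP genes reach at most 1038 bp (Snrpd3 in WT replicate 1), and genes at 0 have no WT-only end region.

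The snRNP genes had narrower regions. Snrpe, an Sm ring gene, led with peaks of 838 bp in WT replicate 1 and 614 bp in WT replicate 2 (chr1:133609925-133610762). Snrpg had a pair of end regions, with 310 and 368 bp over its start and 370 and 386 bp 1.00 kb outside the gene, where the region also met an end window of Fam136a. Snrpd3 had peaks of 1038 and 366 bp and Snrpd2 of 766 and 564 bp, both also Sm ring genes. Of the 9 snRNP genes with an end region none had a summed width over both WT lists above 1452 bp. The U2 snRNP genes Snrpa1 and Snrpb2 had 548 and 576 bp and 368 and 242 bp, and Snrpc, a U1 snRNP gene, had 666 and 612 bp.

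Among the SF3 genes, Sf3b2 had the largest sum, but 1072 and 882 bp of it came from the region at its far end that held a start of Pacs1, and the peaks over its own start were 538 and 418 bp wide. Sf3a2 had peaks of 1014 and 972 bp (chr10:80797931-80798967) and Sf3b1, which encodes the largest SF3b subunit, 1086 and 810 bp (chr1:55026752-55027876). Sf3b1 held a second region of 600 and 682 bp upstream of the gene. Sf3b3 had 736 and 878 bp (chr8:110846528-110847405).

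Summed over both WT peaks, the median width at gene ends was 3151 bp for 18 hnRNP genes, 2285 bp for 10 SR protein genes, 1420 bp for 8 SF3 genes and 1278 bp for 9 snRNP genes. Over the 6395 coding genes with an end region it was 1344 bp. The medians of the ribosomal protein, Eif and proteasome genes were 1295, 1319 and 1235 bp, close to that of all coding genes. Among hnRNP genes 15 of 18 lay above the coding median and 11 of 18 above its 90th percentile (2988 bp). Among SR protein genes these counts were 9 and 1 of 10, among SF3 genes 4 and 0 of 8, and among snRNP genes 3 and 0 of 9. The order of the families was the same in each WT list. The medians in WT replicates 1 and 2 were 1563 and 1523 bp for hnRNP genes, 1170 and 1069 bp for SR protein genes, 693 and 760 bp for SF3 genes and 666 and 574 bp for snRNP genes. Genes of a family are not replicates, so no test was made between families. Width is a property of the authors' peak calling and is not a measure of how much Smad4 was bound.

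**Figure D4:**
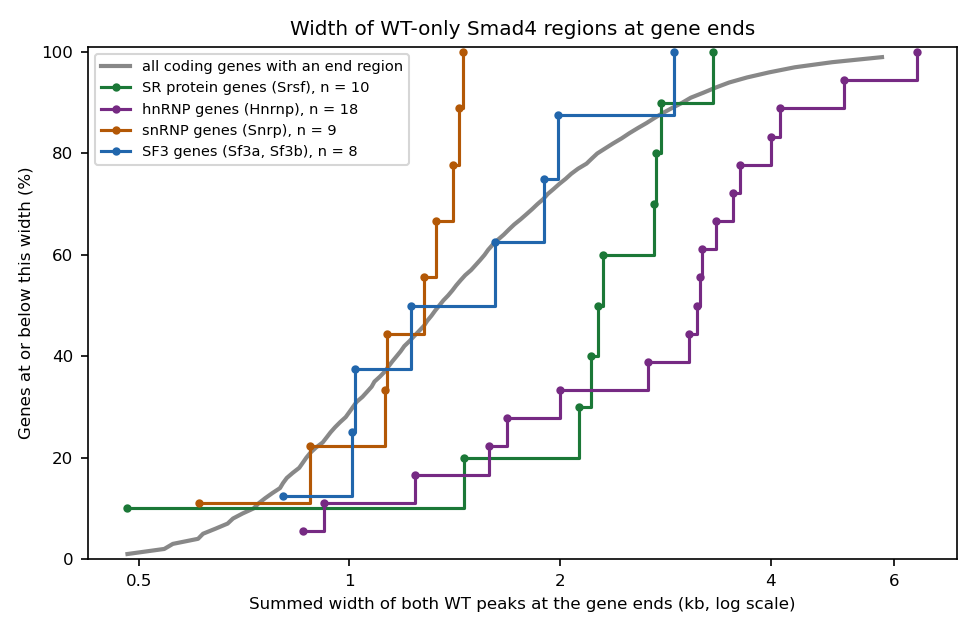
Cumulative share (%) of genes at or below a given summed width of both WT peaks in WT-only end regions (kb, log axis), for each splicing factor family and for all coding genes with such a region (grey). The hnRNP and SR protein curves lie to the right, with medians of 3151 and 2285 bp, and the snRNP curve ends at 1452 bp.

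Across the 47 end regions of members the peak widths in the WT lists had a Spearman correlation of 0.857 and, on log10 values, a Pearson correlation of 0.872. These are correlations across regions of the same pair of libraries and are given as a description. WT replicate 1 had the wider peak in 27 of the 47, with a median ratio of 1.09, while over all WT-only regions it was wider in 67.4%, with a median ratio of 1.15.

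Many members share their end region with a neighbour. Of the 47 end regions, 21 (44.7%) also met an end window of another coding gene, against 32.4% of the end regions of all coding genes. In 10 of them the region held the annotated starts of both genes, on opposite strands. Hnrnpa2b1 was paired in this way with Cbx3 and Hnrnpa1 with Cbx5, which encode heterochromatin protein HP1 family members. Others were Srsf2 with Mfsd11, Hnrnpk with Rmi1, Hnrnpdl with Enoph1, Hnrnpd with 4930524J08Rik, Sf3a2 with Plekhj1, Sf3a1 with Ccdc157, Sf3b3 with Cog4 and Snrpd3 with Gucd1. Peak positions do not assign such a region to one of its genes. The summed width had a median of 1986 bp in the 21 shared regions and 1570 bp in the 26 others. Leaving out regions that also met an end of a coding gene outside the group lowered the number of members with an end region from 45 to 26 (49.1%). Leaving out, for each coding gene, regions at an end of another lowered the share of all coding genes from 29.4% to 20.2%.

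A few members had no WT-only region at an end, 8 in all. Snrpn, an imprinted Sm protein gene expressed mainly in brain, had no peak in any list over the 467683 bp of its annotated body, and neither did Hnrnpa1l2-ps2, a coding entry whose symbol has the form of a pseudogene. Snrpf, an Sm ring gene, had a peak of 388 bp in WT replicate 1 outside the gene and one of 242 bp in WT replicate 2 at its end, which did not meet each other, so it had no reproducible region. Snrpa, a U1 snRNP gene, had only a region 7.96 kb outside the gene, at ends of Rab4b and Mia. Hnrnpc, whose protein binds U-rich stretches, had a WT-only region inside the gene (748 and 242 bp), while its end held a peak of 810 bp in WT replicate 2 alone. Sf3b6 had peaks of 812 and 696 bp inside the gene. Srsf11 and Hnrnph1, described above, had their regions over inner starts.

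The promoters of members were rich in G and C. Over the 47 members with a promoter sequence, the window of 300 bases had a median of 60.0% G and C and 24 CpG dinucleotides, against 56.3% and 13 over all 17492 coding promoters. In coding promoters that met a WT-only region the medians were 63.3% and 25, and in those that met none 53% and 7. The 38 member promoters that met a WT-only region, with 60.7% and 26, had a composition close to that of other coding promoters with a region. The promoter of Snrpn had the lowest values of the members, 45.0% and 2. CpG content moved with the presence of a region over coding genes, and its part in the members' counts was not tested.

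Motifs were searched on both strands of the same windows, 1 window per gene. GGCGC stood in 30 of the 38 member promoters with a region (78.9%), against 75.0% of coding promoters with a region and 46.9% of all. CAGAC stood in 10 of 38 (26.3%), against 47.7% and 48.8%. GTCTAGAC, seen only at Srsf1, stood in 0.212% of all coding promoters. CCGGAA, the core bound by ETS family factors, stood in 20 of 38 (52.6%), against 36.3% of coding promoters with a region and 19.1% of all. The GC box GGGCGG stood in 71.1%, against 72.6% and 46.3%, and CCAAT in 47.4%, against 36.3% and 39.2%. The AP-1 element TGANTCA was found in 5.26%, against 4.03% and 7.03%, and TATAAA in 10.5%, against 5.28% and 13.3%. TGACGTCA, bound by CREB and ATF factors, stood in 2.63%, against 4.22% and 2.33%. A match describes the letters in the window and is not a bound site.

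Splicing genes outside these symbols were counted in the same way. With no matching for length, 78 of 96 further genes of the pathway had a WT-only region in the territory, against 44.3% of all coding genes. At a gene end 70 (72.9%) had one, against 29.4% of all coding genes. All 7 genes of the recognition of the splice acceptor did, among them Sf1, which encodes the branch point binding protein (1318 and 1260 bp), and the helicase gene Ddx39b (1410 and 932 bp). Of the core spliceosome and Prp genes 21 of 26 did, led by Sart1 (1720 and 1276 bp). The other 5, named after their values were seen, were Prpf4, Prpf6, Prpf8, Ddx23 and Aqr. Of the genes of snRNP-specific and Lsm proteins 10 of 14 did, with Lsm6 (1452 and 1408 bp) and Lsm4 (1360 and 1052 bp) at the top. Of the exon junction complex genes 6 of 7 did, led by Rnps1 (2368 and 1338 bp) and Casc3 (718 and 1110 bp). Of the SR protein kinases 5 of 7 did, with Clk3 (1852 and 1344 bp) and Clk4 (878 and 882 bp) the widest. All values in parentheses are peak widths in WT replicates 1 and 2.

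Among 35 other splicing regulators 21 had an end region. Ptbp1, which encodes the polypyrimidine tract binding protein, had 1638 and 2504 bp and Syncrip 2046 and 1786 bp. The 14 without one, named after their values were seen, included genes known mainly from neurons or epithelia (Nova1, Nova2, Elavl2, Elavl3, Elavl4, Rbfox1, Rbfox3, Esrp1 and Esrp2) and others (Rbfox2, Rbm5, Srrm2, Mbnl2 and Celf2). Of these 14, Esrp1, Rbfox3, Srrm2, Mbnl2 and Celf2 had a WT-only region in the territory. Celf2 and Mbnl1, both known regulators of T cell splicing, each held 11 WT-only regions near or inside the gene, with none at an end of Celf2. Both are long genes (chr2:6539694-7396341 and chr3:60472559-60629750), against a median length of 17217 bp over all coding genes. Their numbers of regions were not compared with those of genes of like length. Of all 96 further genes 2, Ptbp3 and Mbnl1, also had KO peaks in their territory, against 2.42% of all coding genes. Ptbp3 had 4 peaks in each WT list and 1 in each KO list, and Mbnl1 had 19 and 15 in WT and 3 in each KO list.

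The coding genes outside the group most like Hnrnpl, by an equal number of WT-only regions in the territory (1) and the nearest summed width at gene ends (6480 bp at Hnrnpl), were Igf1r (6444 bp), Adamts6 (6290 bp), Tab2 (5948 bp) and the pair Gm20783 and LOC108167694, which share a region of 5880 bp. The likeness is taken over the 2 WT lists.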

How the data were processed

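Smad4 ChIP-seq libraries of 2 WT and 2 KO samples were used; the 4 input samples were not analysed here. The authors deposited 1 peak list per library, so replicates were not pooled. Per the file headers and values these hold chromosome, start and end only, without score or height, on mm10. Trim Galore, Bowtie and HOMER 4.8.3 are listed, without roles, per the submitters' processing notes; those notes as used here give no thresholds, use of inputs or read depth. Depth sets how many peaks can be called, so peak numbers and widths may follow it.

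RefSeq gene bounds were on GRCm38.p6, the mm10 assembly; of 21900 coding genes 21779 were used, leaving out mitochondrial genes and those starting below 3000000 bp on chromosomes other than Y. Starts and strands came from the RefSeq promoter table, which matched 47 of 53 members. Positions are 1-based. Peaks meeting by 1 bp were merged. Library values were compared on log10(value + 1), 1 being added because KO values were 0, by a 2-sided exact permutation test. Overlap counting was tested on simulated intervals. The members, lists and named genes were chosen with earlier results of these data known. Genes named in full are the 4 per family with the largest summed WT peak width at gene ends, members with a KO peak, with no peak or with a peak in 1 WT list, and the 2 widest per list of other splicing genes with those having a KO peak; 1 gene that the rule names is not reported here. Srsf1, Srsf11, Srsf12, Hnrnpll, Hnrnpk, Hnrnpf, Hnrnph1 and others named beyond this rule were chosen after their values were seen. Alternatives were stricter overlap, wider peaks, other windows, territories and assignments, leaving out each library, shared ends or sex chromosomes, equal peak numbers and pairing by replicate number. Python 3.11.15, numpy 2.4.6, pandas 2.3.3, SciPy 1.17.1 and matplotlib 3.10.9 were used.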

Additional observations from a re-analysis of the deposited data

How the results depend on the processing

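The count of members with a WT-only region in the territory (50) ranged from 34 to 51 over 13 alternatives, and the count at gene ends (45) from 26 to 49 over 13. The lowest values, 34 and 26, came from leaving out regions at ends of other coding genes, and the second is more than 1.5 times below the main count; under the same exclusion all coding genes fell to 32.7% and 20.2%. Centres within 100 bp gave 40 and 30 members, where all coding genes fell to 37.1% and 20.8%. The same setting lowered the other splicing genes with an end region from 70 to 46. Gene ends of 5 kb moved the share of member regions at an end of the gene from 64.4% to 80.8%, by the wider window itself. No member had a KO peak in any of 5 alternatives. Each of these only took peaks or genes away, so a count of 0 could not rise. Leaving out 1 library at a time gave 50 or 51 members by territory and 45 to 47 at gene ends. With 1 WT list left, no overlap between lists was required, which favours higher counts. Without WT replicate 1 all coding genes rose to 48.2% of territories and 32.3% of gene ends. Without WT replicate 2 they rose to 53.2% and 36.3%. No KO peak lay in a member territory, so leaving out a KO list left 50 and 45.

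Pairing by replicate number, a replicate block over 2 pairs, left the WT minus KO differences at 51 and 46.5 genes and 76013 bp, with an exact sign permutation p of 0.5, the smallest it can give; the labels do not say that the numbers mark shared animals or days, and with no KO peak at any member the pairing could not be checked. Equal numbers of peaks reduced the differences to 6.5 and 5.5 genes. Without a score, the stricter peak threshold was replaced by peak width. For the KO count, overlap settings and WT libraries cannot change a value and gave none. The unknown depth limits every comparison between lists.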
